A study of Mus musculus with 3 samples.

Results

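Glycinergic amacrine cells of the mouse retina were examined as 91 cell barcodes out of 25237 kept barcodes in 3 single-cell libraries. The barcodes were chosen by their own reads. A kept barcode had at least 500 detected genes and at most 20% mitochondrial reads. A member also had at least 3 reads of Slc6a9, the glycine transporter GlyT1, and at least 2 reads of the amacrine transcription factor genes Tfap2a, Tfap2b and Pax6 together. It had fewer than 3 reads of the GABA-synthesis genes Gad1 and Gad2, fewer than 2 reads each of the horizontal cell genes Lhx1 and Onecut1, and fewer than 4 of 5 Müller glia genes with 3 or more reads. The levels of these genes therefore describe the choice and are not results. The rule found 13 members in the wild-type (WT) library, 63 in the knockout (KO) library and 15 in the treated library.

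All 3 libraries came from retinas at postnatal day 26, and the labels give each of them, the WT included, the strain name Tspan12tm1.2Hjug. The groups were WT mice, Tspan12 KO mice, and Tspan12 KO mice injected intraperitoneally with F4L5.13 at 10 mg/kg on postnatal days 6, 9 and 12 and with 4 mg/kg every 3 days afterwards. F4L5.13 is an antibody that joins the receptors FZD4 and LRP5 and activates them without ligand, and TSPAN12 is the tetraspanin that helps the ligand Norrin act on the same pair. Photoreceptors and dying cells had been removed with magnetic beads against CD73 and Annexin V, so shares describe the depleted suspension. With 1 library per group, no difference between groups has a replicate check or a test, and intervals cover counting error only. The number of animals behind each library is not known here.

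Amacrine cells are inhibitory interneurons of the inner retina that release GABA or glycine. Glycinergic amacrine cells have small fields, take glycine up through GlyT1, load it into vesicles with the transporter VGAT and act on chloride-permeable glycine receptors. The best known of them, the AII cell, is coupled by connexin 36 gap junctions and carries rod signals to the cone bipolar pathway. Others known from mouse include the SEG type, which is marked by Ebf genes, and a type that also releases glutamate through VGLUT3. The nGnG types, marked by Neurod6 or Ppp1r17, are amacrine cells named as neither GABAergic nor glycinergic.

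The WT, KO and treated libraries kept 6081, 10239 and 8917 barcodes. The median number of reads per member was 13247, 16930 and 19315, and all members of a library together held 182131, 1158412 and 305577 reads. The WT and treated sums are thus the shallower ones, and a gene with no read in them could still be present at up to 47.7 and 31.4 CPM (reads scaled to a common library total), against 7.43 CPM in the KO. The libraries stood apart in how many amacrine barcodes they held. GABAergic amacrine barcodes, chosen by the same rule with at least 3 reads of Gad1 and Gad2 and fewer than 3 of Slc6a9, numbered 54, 778 and 73, or 3.01, 51.2 and 5.43 per 100 Müller barcodes. Tspan12 reads checked the labels poorly, since the deleted exons are not known here and the 3' tags may lie outside them. Its level in members was 43.9 CPM in the WT, 17.3 CPM in the KO and 22.9 CPM in the treated library, with intervals of 8.24 to 134, 6.92 to 35.6 and 3.18 to 78.7 CPM.

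Markers of other cells were present beside those of amacrine cells. The 13 rod genes summed to 9416 CPM in WT members, 4252 CPM in KO members and 4896 CPM in treated members, and the highest single WT member held 118667 CPM of them against a WT median of 528 CPM. The 12 bipolar genes summed to 533, 1584 and 985 CPM, and the 10 Müller genes to 824, 714 and 3708 CPM. The high treated Müller sum and the high KO bipolar sum came from few barcodes. In the KO 5 members and in the treated library 3 members, but no WT member, had 3 or more reads in at least 4 of 12 bipolar genes or at least 3 of 5 glial genes, and without those 8 the bipolar sums were 533, 301 and 134 CPM and the Müller sums 824, 257 and 161 CPM. Microglial genes summed to 5.49, 5.18 and 0 CPM, the 3 astrocyte genes to 0, 0.863 and 88.4 CPM, all of it Gfap and mostly from 1 treated member at 1094 CPM, and the red cell genes summed to 27.5, 0 and 26.2 CPM. The 9 ganglion cell genes summed to 324, 225 and 213 CPM, with Slc17a6, Pou4f1, Pou4f2 and Pou4f3 at 0 in all libraries, and the 8 endothelial genes to 104, 217 and 196 CPM, with Cldn5 and Cdh5 at 0. No member's barcode sequence was shared with another library, although 17, 15 and 31 barcodes were shared between WT and KO, WT and treated, and KO and treated.

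The threshold of 3 Slc6a9 reads had barcodes close to it on both sides. Barcodes with exactly 2 reads that met the rest of the rule numbered 10 in the WT, 45 in the KO and 3 in the treated library. Those with exactly 3 reads numbered 2, 9 and 1, fewer than the 3, 22 and 4 with exactly 4 reads, so the numbers did not fall evenly. In the KO the barcodes just outside held 385 CPM of Slc32a1 and 2.95 CPM of the bipolar gene Trpm1, and those just inside held 378 and 252 CPM. Slc6a9 itself stood at 428 CPM in WT members, 314 CPM in KO members and 324 CPM in treated members, against 4.47, 1.34 and 0 CPM in GABAergic barcodes. These values restate the rule.

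A second gene in the Slc6a9 locus held more reads than Slc6a9. Slc6a9 lies on the plus strand of chromosome 4 from 117834506 to 117875198 (GRCm38), and Ccdc24, a coiled-coil gene of the minus strand, lies wholly inside it from 117866524 to 117872557. Their exons share 1429 bases, which is 27.8% of the Slc6a9 exon bases and 31.8% of those of Ccdc24. Ccdc24 stood at 1296 CPM in WT members, 819 CPM in KO members and 677 CPM in treated members, and 12 of 13, 55 of 63 and 12 of 15 members had 3 or more reads of it. In GABAergic barcodes it was at 91.2, 79.1 and 47.7 CPM, with 3 or more reads in 7 of 54, 114 of 778 and 8 of 73. It is not known here whether the authors' counting used strand, so reads of the pair cannot be told apart, and Ccdc24 was picked out after its values had been seen. Among barcodes that passed the amacrine gate but met neither class rule, 29.7%, 41.9% and 28.1% had 3 or more Ccdc24 reads.

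Members made up 0.214% of kept barcodes in the WT (exact 95% interval 0.114% to 0.365%), 0.615% in the KO (0.473% to 0.787%) and 0.168% in the treated library (0.0942% to 0.277%). The KO share lay above both others, and its interval did not meet theirs. The kept barcodes behind these shares differed in depth, with a median of 14792, 8408 and 9708 reads. Those under 5000 reads numbered 31, 4117 and 3391, and thinning to 5000 reads leaves them out. With 5 or more Slc6a9 reads the KO interval (0.214% to 0.441%) met that of the WT (0.0568% to 0.259%), and after thinning to 5000 reads (0.174% to 0.464%) it met those of the WT (0.0364% to 0.216%) and the treated library (0.0399% to 0.236%). Per 100 Müller barcodes there were 0.725, 4.15 and 1.12 members. Among barcodes of the 2 amacrine classes the order was the other way round. Members were 13 of 67 in the WT, or 19.4% (10.8% to 30.9%), 63 of 841 in the KO, or 7.49% (5.80% to 9.48%), and 15 of 88 in the treated library, or 17.0% (9.87% to 26.6%). The KO proportion lay below both others without overlap of intervals. Its interval met that of the treated library without the highest doublet scores (5.34% to 9.19% against 8% to 24.7%), without the 8 members with bipolar or glial genes (5.75% to 9.59% against 7.90% to 24.4%) and after thinning to 5000 reads (1.82% to 4.80% against 2.99% to 16.6%). Without any member that had 3 reads of a glial or bipolar gene it met those of both others (5.37% to 9.25% against 5.59% to 25.8% in the WT and 6.41% to 22.6% in the treated library). The yield of GABAergic barcodes moved with it, and its part in the difference was not tested. When Slc6a9 and Ccdc24 reads were added for the threshold, the class held 96, 449 and 105 barcodes, which was 67.1% (58.8% to 74.8%), 40.5% (37.6% to 43.4%) and 61.8% (54.0% to 69.1%) of amacrine barcodes. The KO was the lowest of the 3 here too, at proportions several times as large. The barcodes this added were less clearly amacrine cells. Of neither-class barcodes with 3 or more Ccdc24 reads, 33 of 83, 230 of 381 and 32 of 90 had 3 or more reads of Slc32a1, the vesicular transporter gene. In members with such Ccdc24 reads it was 10 of 12, 45 of 55 and 10 of 12. The fraction thus differed between libraries, and the widened share is no independent repeat of the order.

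**Figure D1:**
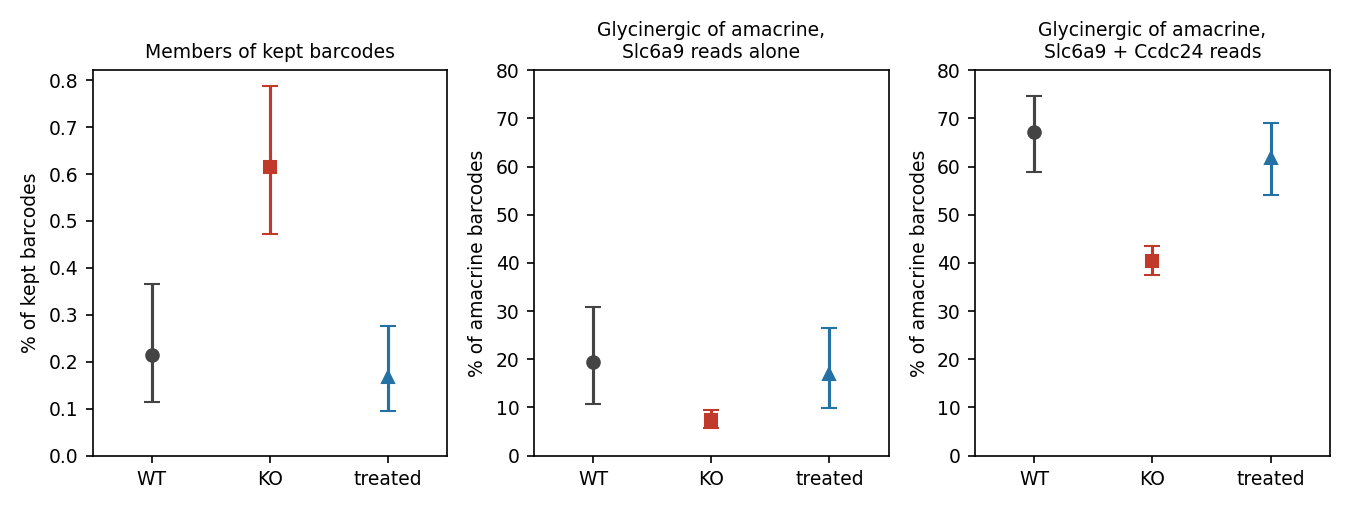
Share of members among kept barcodes (left), and glycinergic share of amacrine barcodes with Slc6a9 reads alone (middle) and with Slc6a9 and Ccdc24 reads added (right), in percent for the WT, KO and treated libraries; bars are exact 95% intervals for counting error. The KO is the highest on the left (0.615%) and the lowest in the middle (7.49%) and on the right (40.5%).

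Genes the rule did not use were then compared between members and GABAergic barcodes of the same libraries. Reads were summed per class and library and tested with edgeR's quasi-likelihood test with library as a term and Benjamini-Hochberg adjustment over all 10581 genes tested, with the genes of the rule left out. At an adjusted p under 0.05, 228 genes were higher in members, 2.15% of those tested, and 433 were lower, 4.09% of those tested. The median difference over all genes was -0.06 on the log2 scale. Without the treated library 145 genes were higher and 335 lower. The libraries are the replicates here, and the spread between them mixes genotype and treatment with technical differences. Of the 433 lower genes, 41 had no read in any member.

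The clearest differences upward were in genes of varied function. Lamp5, a lysosome-associated membrane protein of subsets of neurons (chromosome 2, 136052239 to 136069917), was at 1208 CPM in WT, 1549 CPM in KO and 946 CPM in treated members, against 29.5, 139 and 75.5 CPM in GABAergic barcodes. Every member sum lay above every GABAergic sum, and the log2 difference was 4.05 ± 0.29 (SE, adjusted p 3.94e-06). Ptgis, prostacyclin synthase, was at 93.3, 94.1 and 72.0 CPM in members and at 0, 2.86 and 1.05 CPM in GABAergic barcodes, a log2 difference of 5.68 (SE 0.61). Lamp5 had 3 or more reads in 83 of 91 members and in 113 of 905 GABAergic barcodes. Ptgds, prostaglandin D synthase, was at 176, 297 and 347 CPM against 13.4, 41.7 and 3.15 CPM, and Sct, which encodes the peptide secretin, was at 32.9, 44.9 and 170 CPM against 0, 1.75 and 6.30 CPM.

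The remaining genes named by the size of their difference were the aquaporin Aqp6 (log2 5.29), the potassium channels Kcnj5 (4.81) and Kcnh1 (4.15), the betaine and GABA transporter Slc6a12 (4.45), the oxidase Hao2 (4.32), the kinase Mapk12 (3.76), Tmem51 (3.75), the phosphatase regulator Ppp1r17 (3.69), the dopamine receptor Drd2 (3.68) and the transcription factors Prdm13 (3.87) and Ebf3 (3.71). Prdm13, which acts in amacrine cell formation, was at 143, 62.2 and 94.9 CPM against 6.26, 10.2 and 2.10 CPM. Several of these rest on few reads. Kcnj5 reached at most 27.5 CPM, and 5 of 91 members had 3 or more reads of it. Aqp6 missed the threshold without the KO library and Tmem51 without the treated library, with edgeR adjusted p of 0.055 in both. Without the KO library the log2 difference was 6.72 for Ptgis, 5.11 for Ptgds, 4.89 for Prdm13 and 4.84 for Ebf3, and without the treated library it was 3.14 for Ptgds, 5.30 for Hao2 and 2.88 for Ebf3. Against equally many GABAergic barcodes of like depth, chosen after the data had been seen, Slc6a12, Hao2, Kcnh1, Mapk12, Ebf3 and Drd2 missed the threshold.

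The genes named at the other end had no read in any of the 91 members. They were Mn1, Mmp9, Nrip2, Rhou, Lhx9, Grb14, Tgfb1, Kcnk9, Sstr2 and Steap3. The limit that no read allows was 5.34 CPM over the 3 libraries summed, and on that limit Mn1, a transcriptional regulator, was at least 22.6-fold lower than in GABAergic barcodes, where it stood at 140, 120 and 118 CPM. Mmp9, a matrix metalloproteinase, was at least 15.6-fold lower (108, 73.9 and 159 CPM in GABAergic barcodes). Lhx9, a LIM homeobox factor of some amacrine cells, was at least 10.0-fold lower, and the somatostatin receptor Sstr2 at least 6.37-fold lower. The other 6 were between 7.84-fold and 10.7-fold lower at least.

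**Figure D2:**
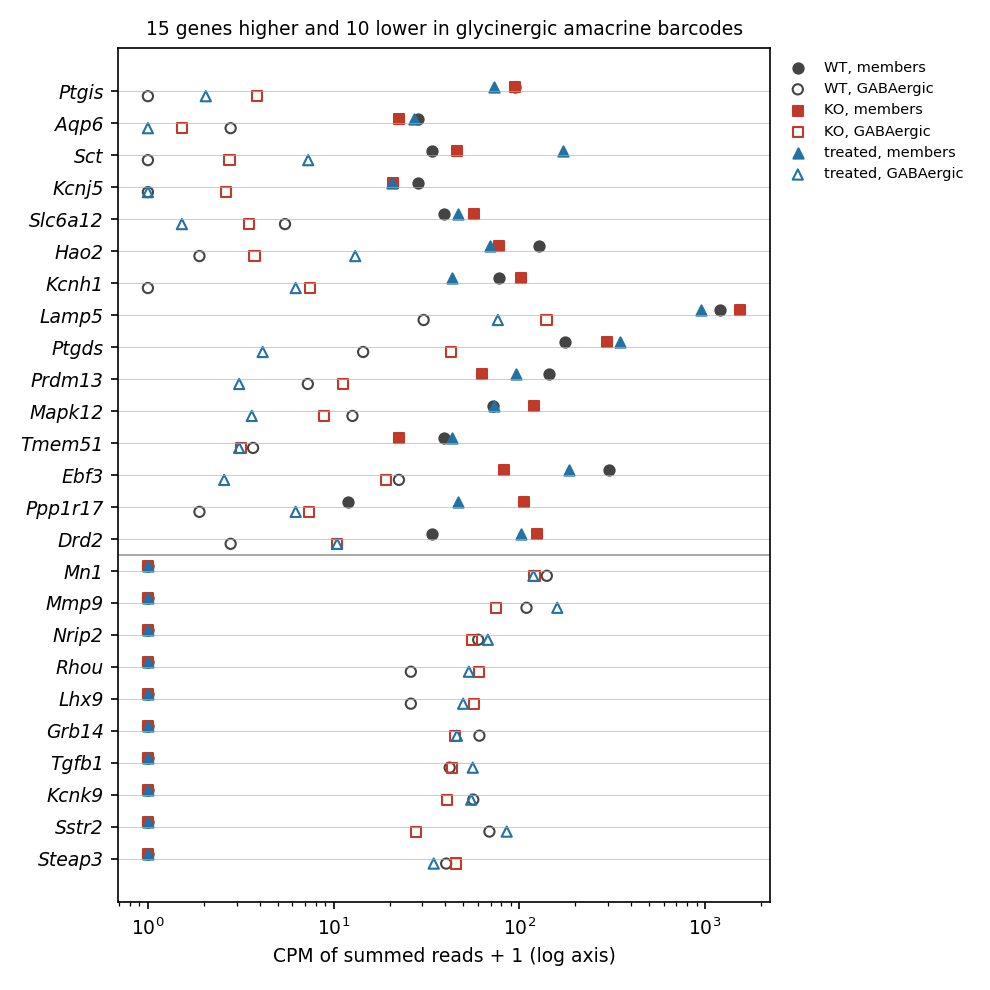
Level of each gene named by the size of its difference, as CPM of summed reads plus 1 on a log axis, in members (filled) and GABAergic barcodes (open) of the WT, KO and treated libraries. The filled points lie to the right of the open ones for the upper 15 genes, and at 0 CPM, drawn at 1, for the lower 10.

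Beyond Slc6a9, none of the 8 genes of glycine handling tested passed. Slc32a1, which encodes the vesicular transporter VGAT that loads glycine and GABA alike, was at 467 CPM in WT, 403 CPM in KO and 291 CPM in treated members against 509, 551 and 491 CPM in GABAergic barcodes (log2 -0.45, SE 0.18, edgeR adjusted p 0.23). It had 3 or more reads in 10 of 13, 48 of 63 and 10 of 15 members, and in 3 of 2824, 32 of 1918 and 9 of 2455 bipolar barcodes (0.106%, 1.67% and 0.367%). Slc6a5, the neuronal glycine transporter GlyT2, was low at 16.5, 39.7 and 32.7 CPM against 12.5, 18.7 and 13.1 CPM.

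Receptor genes differed in a few subunits. Of 5 glycine receptor genes tested, 1 was lower, Glra1, and none was higher. It had no read in any member against 26.8, 18.9 and 14.7 CPM in GABAergic barcodes, at least 3.56-fold lower, and missed the threshold without the KO library (edgeR adjusted p 0.12). Glra2, Glra3 and Glrb stood at 87.8, 10.4 and 75.3 CPM, at 27.5, 63.9 and 121 CPM, and at 49.4, 55.2 and 85.1 CPM in WT, KO and treated members. Of 12 GABA receptor genes, Gabrg3 was higher in members (214, 110 and 111 CPM against 36.7, 23.7 and 30.4 CPM, log2 2.21, SE 0.31), and Gabra2 and Gabbr2 were lower (log2 -4.86 and -2.32). Leaving out the KO library put Gabra2 at -5.79 and Gabbr2 at -3.29, and leaving out the treated library put Gabra2 at -4.22.

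Of 18 glutamate receptor genes, 2 were higher and 3 lower. The AMPA receptor subunit Gria3 was at 373, 188 and 275 CPM in members and 130, 118 and 102 CPM in GABAergic barcodes (log2 1.19, SE 0.23, edgeR adjusted p 0.0066). The kainate receptor subunit Grik2 passed narrowly (adjusted p 0.047) and missed the threshold without any 1 library, with edgeR adjusted p of 0.067 without the WT, 0.058 without the KO and 0.29 without the treated library. The NMDA receptor subunit Grin2a had 20 reads in KO members and none in WT or treated members, against at least 42.0 CPM in GABAergic barcodes of every library (log2 -3.39). Grm4 had no read in any member and was at least 4.89-fold lower.

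Gjd2, the gene of connexin 36 (chromosome 2, 114009601 to 114013619), was higher in members. It was at 82.4 CPM in WT, 443 CPM in KO and 259 CPM in treated members against 28.6, 42.8 and 36.7 CPM in GABAergic barcodes, a log2 difference of 2.76 (SE 0.34, edgeR adjusted p 2.2e-04). The adjusted p was 0.18 against equally many GABAergic barcodes of like depth. Gjd2 is also a bipolar gene, at 124, 117 and 136 CPM in bipolar barcodes, and without the 8 members that held many bipolar or glial genes it stood at 82.4, 486 and 317 CPM. The 3 other gap junction genes tested did not pass. Among 5 dopamine and other receptor genes, Drd2 and Drd4 were higher and the cannabinoid receptor Cnr1 lower. Drd4 was even across libraries at 307, 299 and 278 CPM against 63.5, 57.4 and 32.0 CPM (log2 2.58, SE 0.25). Cnr1 had reads in KO members alone (8.63 CPM) against 93.9, 148 and 91.8 CPM in GABAergic barcodes, with a log2 difference of -4.65, and without the KO library no member read remained.

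Of 19 genes tested on the list of amacrine and subtype transcription factors, 9 were higher and 5 lower. The median log2 difference was 1.17, and over all genes tested 2.15% were higher and 4.09% lower. The list was drawn up with earlier results of these data known, so its count of calls depends on that choice. Prox1, a homeobox factor of AII and other inner retinal cells, was at 428, 429 and 543 CPM against 30.4, 80.6 and 25.7 CPM (log2 3.45, SE 0.33). The nuclear factor I gene Nfix was at 686, 257 and 242 CPM against 48.3, 64.0 and 3.67 CPM, and Nfib at 247, 114 and 209 CPM against 36.7, 30.1 and 0.525 CPM. Both lay higher in every library, with log2 differences of 3.53 and 3.30. Nfia, the third member of that family on the list, was at 76.9, 428 and 396 CPM against 119, 118 and 112 CPM and did not pass (log2 1.26, edgeR adjusted p 0.075). Its WT value lay below the GABAergic sums and its KO and treated values above them.

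Ebf1, an early B-cell factor, was at 286, 131 and 272 CPM in members against 22.4, 45.3 and 3.67 CPM, and Ebf3 at 302, 82.0 and 183 CPM against 21.5, 18.0 and 1.57 CPM. The neurogenic factors Neurod2 (log2 3.48), Neurod4 (2.27) and Neurod1 (1.17) and the helix-loop-helix factor Tcf4 (2.19) were higher as well. Tcf4 was at 774, 537 and 638 CPM against 178, 153 and 100 CPM. Meis2, a homeobox factor known from GABAergic amacrine cells, was lower at 16.5, 42.3 and 170 CPM against 517, 602 and 604 CPM (log2 -3.17, SE 0.39), and 17.3 and 40.2 CPM remained in KO and treated members without the 8 barcodes with bipolar or glial genes. Lhx9 and Bcl11b had no read in members, and Meis1 (log2 -1.81) and Nr4a2 (log2 -4.94) were lower. Without the treated library Neurod1 (edgeR adjusted p 0.32), Meis1 (0.12) and Bcl11b (0.055) missed the threshold. The same omission put Ebf1 at 2.42, Nfix at 2.82, Nfib at 2.27, Neurod4 at 1.58 and Meis2 at -4.09, and omission of the KO put Ebf1 at 4.72, Nfix at 4.61, Nfib at 4.41, Prox1 at 4.10 and Meis1 at -2.63 and left no member read of Nr4a2.

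Of 16 neuropeptide genes listed, 5 were tested, and of these 4 were lower in members and none higher. Over all genes tested 4.09% were lower and 2.15% higher. A gene could pass the low-count filter through the GABAergic sums alone, so the count is no result about neuropeptides as a set. The secretin gene Sct, which was higher in members (log2 4.90), is not on this list. Tac1, which encodes substance P, had 2 reads in KO members and none elsewhere (0, 1.73 and 0 CPM) against 72.4, 272 and 112 CPM. Cartpt, the CART peptide gene, was present but lower, at 664, 16.4 and 386 CPM against 8343, 2825 and 4881 CPM. Cartpt had 3 or more reads in 9 of 13 WT members, 2 of 63 KO members and 5 of 15 treated members. The 5 deepest barcodes held 74.4% of its WT reads and 100% of its treated reads, over the 50% limit set for naming a gene between libraries. It was also a leading gene of the second group of members described below, which held 8 of the WT and 14 of the KO members. The part of that make-up in the low KO level was not tested. Scg2 and Vgf, genes of granins that are packed with peptides, were lower with log2 differences of -2.33 and -1.91. The difference for Tac1 was -7.46 on the log2 scale, resting on those 2 reads, that for Cartpt -4.63, with a range of -5.29 to -3.68 on leaving out a library, and that for Scg2 was -3.02 without the KO library. The peptide genes Vip and Sst had no read in any member.

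Calcium-binding proteins included 4 higher and 1 lower gene of 9. Calb2, the calretinin gene, was at 846, 731 and 445 CPM against 442, 312 and 33.6 CPM (log2 1.84, SE 0.40), and Calb1, the calbindin gene, at 247, 234 and 219 CPM against 62.6, 35.7 and 18.4 CPM (log2 2.74, SE 0.31). Both were higher in every library, and Calb2 was at 1.07 without the treated library. Necab1 (log2 0.90) passed narrowly and missed the threshold without any 1 library (edgeR adjusted p 0.071 to 0.13). Caln1 was lower, with 5 reads in KO members, none elsewhere and a log2 difference of -5.10.

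Of 14 vesicle and release genes, 1 was higher and 3 were lower. Sv2b, a vesicle glycoprotein gene, was at 181, 170 and 160 CPM against 33.1, 40.0 and 17.3 CPM (log2 2.54, SE 0.31). Cplx2, the complexin 2 gene, was at 27.5, 107 and 144 CPM against 1058, 865 and 1266 CPM (log2 -3.46, SE 0.30). The sums for these genes did not overlap between classes. Snap25 (log2 -0.60) and Syn2 (log2 -1.53) were lower by less, and Snap25 missed the threshold without the KO (edgeR adjusted p 0.092) or the treated library (0.17) and Syn2 without the KO (0.32).

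Of 16 sodium and potassium channel genes, 2 were higher and 6 lower. The sodium channel gene Scn1a was higher, at 137, 191 and 291 CPM against 90.3, 76.1 and 81.8 CPM (log2 1.30, SE 0.27). The potassium channels Kcna1 (log2 -3.72), Kcnc2 (log2 -3.49), Kcnd3 (log2 -2.36) and Kcnd2 (no read in members, at least 2.84-fold lower) and the sodium channel Scn3a (log2 -1.98) were lower. Kcna1 was at 22.0, 15.5 and 6.54 CPM against 138, 199 and 215 CPM. Scn1a and Kcnd2 missed the threshold without the treated library (edgeR adjusted p 0.096 and 0.0501), and Scn3a was at -2.71 without the KO. Among 17 adhesion genes, Dscaml1 was higher (log2 2.46) and Nrxn2 lower (log2 -1.84). Nrxn2, a presynaptic neurexin gene, was at 209, 415 and 321 CPM against 995, 1193 and 1154 CPM.

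Several calls on these lists did not hold under other settings of the class test. Against equally many GABAergic barcodes of like depth, Gabbr2, Grik2, Meis1, Necab1, Snap25, Syn2, Scn1a, Scn3a and Kcnd3 missed the threshold, and so did Gjd2. With each barcode thinned to 5000 reads, Gria3, Gabbr2, Meis1, Neurod1, Nr4a2, Snap25, Syn2 and Scn3a missed it. With 5 or more Slc6a9 reads asked for, Glra1, Grik2, Meis1, Neurod1, Necab1, Snap25, Syn2 and Kcnd2 missed it. Calb2 missed it without the library term, Nfib with DESeq2, Necab1 without the low-count filter, and Grik2 and Neurod1 without the highest doublet scores. Prox1, Nfix, Ebf1, Neurod2, Neurod4, Tcf4, Meis2, Drd4, Calb1, Sv2b, Cplx2, Kcna1, Gabrg3, Dscaml1 and Nrxn2 passed in every setting run.

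**Figure D3:**
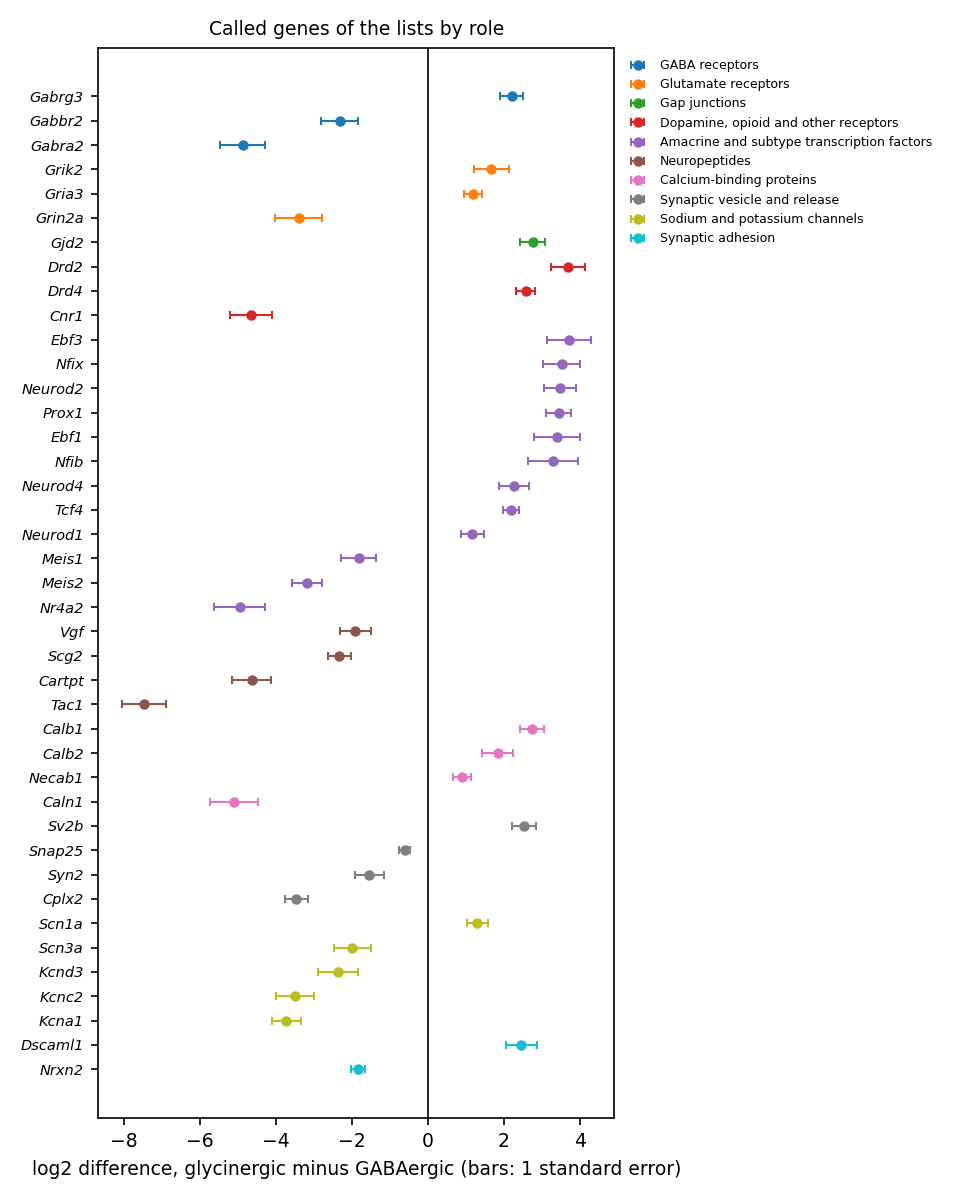
Difference between members and GABAergic barcodes on the log2 scale, with bars of 1 standard error, for genes of the functional lists that passed the test, had reads in members and are described in the text. Transcription factor genes lie on both sides, from Ebf3 at 3.71 to Nr4a2 at -4.94, while the 4 neuropeptide genes lie to the left of 0.

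Gjd2 and Ebf reads rarely occurred in the same member. With 3 or more reads taken as present, Gjd2 was present in 2 of 13 WT, 31 of 63 KO and 6 of 15 treated members, and Ebf1, Ebf2 or Ebf3 in 9, 19 and 6. Only 1 member of 91, a treated barcode, held both, and none did in the WT or KO. Nfia was with Gjd2 in 2 of 2, 28 of 31 and 4 of 6 such members, and Nfia and an Ebf gene were together in 0, 1 and 1. Ppp1r17 was present in 0, 19 and 2 members, and 16 of the 19 in the KO also held Gjd2. At least 4 of the 7 AII genes Gjd2, Prox1, Dab1, Nfia, Nfib, Nfix and Calb2 were present in 5, 40 and 9 members. Because Nfix, Prox1 and Calb2 occurred in both sets, 4, 10 and 3 of these also held an Ebf gene.

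The share of Gjd2 members was 15.4% in the WT (1.92% to 45.4%), 49.2% in the KO (36.4% to 62.1%) and 40.0% in the treated library (16.3% to 67.7%), and that of Ebf members 69.2% (38.6% to 90.9%), 30.2% (19.2% to 43.0%) and 40.0% (16.3% to 67.7%). The exact intervals of all 3 libraries overlapped for both. For Ebf members those of the WT and KO met only between 38.6% and 43.0%. Overlap does not show that the make-up was the same, and a difference between libraries was not tested. Bipolar barcodes, which use Gjd2 themselves, had 3 or more reads of it in 26.8%, 26.6% and 30.3%, and GABAergic barcodes in 7.41%, 12.5% and 11% (4 of 54, 97 of 778 and 8 of 73). Of markers of the SEG, nGnG and VGLUT3 types, Ebf2, Neurod6 and the VGLUT3 gene Slc17a8 reached 3 reads in no member.

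**Figure D4:**
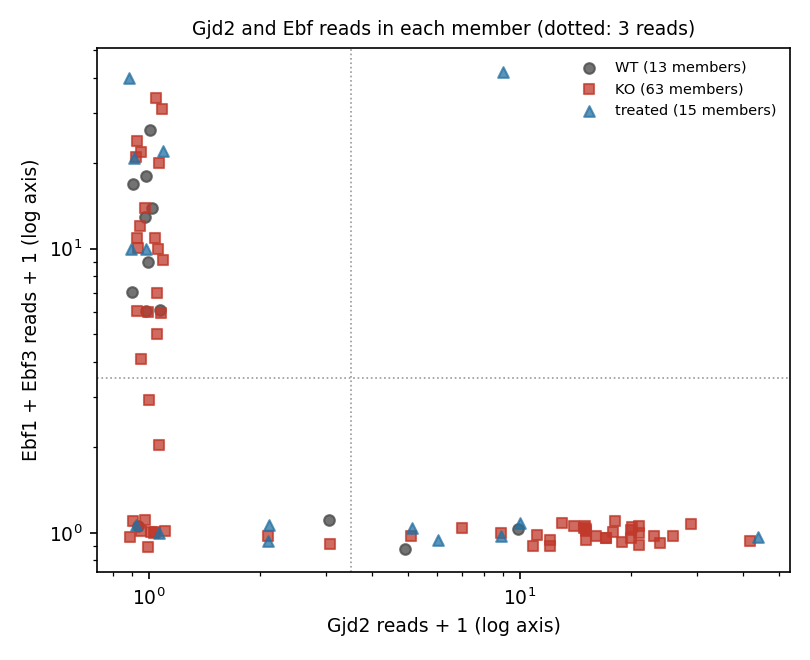
Reads of Gjd2 (horizontal) and of Ebf1 and Ebf3 together (vertical), plus 1 on log axes with points spread slightly, in each of the 91 members; dotted lines mark 3 reads. Members lie along the 2 axes, with 1 treated member beyond both lines.

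Clustering of the members by all genes gave 4 groups. None reached 3 markers of the AII, SEG or nGnG type, so the groups are given without names and described by their genes. A marker counted when it was at least 2-fold above the other members and present in at least 20% of the group. The first, with 3 WT, 27 KO and 5 treated members, had Fgf1, Gjd2 and Zyx among its leading genes. Gjd2 stood at 813 CPM in its KO and 700 CPM in its treated members, and Ebf1, Ebf3 and Nfib had no read in either. Its KO members held 3179 CPM of the carbonic anhydrase gene Car2, 2038 CPM of Lamp5, 213 CPM of Drd2, 395 CPM of Drd4 and 313 CPM of Neurod2. The second, with 8, 14 and 4 members, was led by Tfap2c, Thy1, Htra1 and Cartpt. Its WT and KO members held no Gjd2 and no Drd2 read, and 453 and 276 CPM of Ebf1, 472 and 468 CPM of Ebf3 and 1052 and 1248 CPM of Nfix.

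The third, with 2, 10 and 5 members, was led by the cone genes Opn1sw and Pde6h and the bipolar gene Pcp2, and it held all 8 members with many bipolar or glial genes. It reached 12 of 13 rod, 7 of 7 cone, 10 of 12 bipolar and 7 of 10 Müller markers. The second group reached 3 of 9 ganglion cell markers and the fourth 3 of 7 GABAergic amacrine markers. The fourth, with 0, 12 and 1 members, was led by A930001A20Rik, Cdh22 and Hs3st6. Its KO members held 1873 CPM of Lamp5 and 487 CPM of Ebf1, but 25.1 CPM of Ebf3 and 5.02 CPM of Gjd2. In the third group, Ebf1 and Ebf3 had 21 and 20 reads in treated members and 2 and 0 in KO members. These genes could take part in the clustering and are given as a description.

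Levels in members were next set side by side between libraries. A gene was counted as different when its CPM ratio was at least 2, the higher library held at least 30 molecule equivalents (reads divided by the estimated reads per molecule), and the bound of the exact 95% interval nearest 1 lay beyond 1.5. The KO exceeded the WT in 27 of 2447 genes (1.1%) and lay below it in 11 (0.45%). The treated library exceeded the KO in 21 of 2450 genes (0.857%) and lay below it in 8 (0.327%), and it exceeded the WT in 13 of 375 genes (3.47%) and lay below it in 3 (0.8%). The first and second of these comparisons share the KO library. Scaling mattered, since the median log2 ratio of KO to WT over all genes was -0.11 by CPM and 0.17 by median-ratio factors, which gave 62 higher and 6 lower genes. Without the 8 members with bipolar or glial genes the counts for the treated library against the KO were 4 and 10, and against the WT 3 and 3.

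Of the 3 metallothionein genes, which encode small cysteine-rich proteins that bind zinc and copper, Mt1 and Mt2 passed the size rule for the KO against the WT and for the treated library against the KO. Mt1 (chromosome 8, 94179082 to 94180327) was at 373 CPM in WT members, 2478 CPM in KO members and 726 CPM in treated members. The KO was 6.64-fold above the WT (4.49 to 10.7), and the treated library 3.41-fold below the KO (2.69 to 4.45). The same order held member by member, with a lowest, median and highest value of 0, 226 and 2087 CPM in the WT, 0, 2051 and 6323 CPM in the KO and 0, 373 and 2957 CPM in the treated library. The ranges overlapped, and 7 of 13, 57 of 63 and 11 of 15 members had 3 or more reads. Mt2, its neighbour on chromosome 8 (94172664 to 94173568), was at 27.5, 362 and 134 CPM, 13.2-fold higher in the KO than in the WT (3.09 to 94.7) and 2.70-fold lower in the treated library than in the KO (1.51 to 5.12). Mt3, the neuronal form, was at 82.4, 74.2 and 137 CPM with overlapping intervals.

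Mt1 was also highest in the KO in the other classes. GABAergic barcodes held 326, 609 and 185 CPM, bipolar barcodes 609, 2107 and 636 CPM and Müller barcodes 1720, 7200 and 2789 CPM. The WT and treated libraries stood in the same order as in members in bipolar and Müller barcodes and in the opposite order in GABAergic barcodes. The difference between members and GABAergic barcodes passed edgeR's test over the 3 libraries for Mt1 (log2 1.47, SE 0.30, adjusted p 0.0092) and for Mt2 (log2 2.38, SE 0.63, adjusted p 0.043). Mt2 missed it without the KO (adjusted p 0.080) and without the treated library (0.0501), and stood at 3.20 without the WT. Both missed it without the library term and against equally many GABAergic barcodes of like depth.

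Free RNA of Müller cells can reach other barcodes, and its part in the Mt1 level was not tested. In KO members without many bipolar or glial genes, Mt1 was at 2427 CPM against 7200 CPM in Müller barcodes. The Müller gene Apoe was at 64.0 CPM in these members against 19330 CPM in Müller barcodes, and at 261 CPM in all KO members. These members had been chosen for few glial genes, so their Apoe level depends on the choice. Mt1 was also higher in the KO within the groups of members. In the first group it stood at 3065 CPM in the KO and 516 CPM in the treated library, in the second at 2485 CPM in the KO and 453 CPM in the WT, and in the third at 2411 CPM in the KO and 939 CPM in the treated library.

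**Figure D5:**
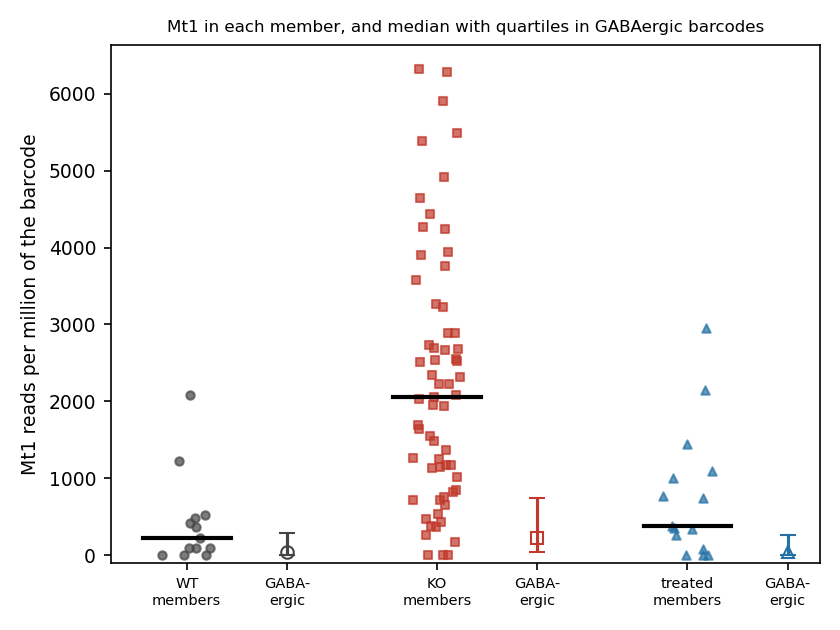
Mt1 level of each barcode in CPM: each point is a member and the black line the median of the members of a library (226, 2051 and 373), and open symbols with bars give the median and quartiles of GABAergic barcodes. KO members reach 6323, and their median lies above those of the WT and treated members.

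Other genes that met the size rule for the KO above the WT included several that mark the Gjd2 members. Gjd2 itself was 5.38-fold higher (2.34 to 17.4), Nfia 5.57-fold (2.26 to 16.8) and Neurod2 6.37-fold (1.78 to 55.5). The share of Gjd2 members moves with these ratios, and its part in them was not tested. The first group of the clustering, the one led by Fgf1, Gjd2 and Zyx, held 3 WT members, too few for a WT level of its own. Ntrk3, a neurotrophin receptor gene, and Slc16a3, a lactate transporter gene, had no WT read and stood at 128 and 95.8 CPM in the KO, at least 2.68-fold and 2.01-fold higher. The others named by the rule were Jmjd6 (135 CPM against 5.49 CPM, from 1 WT read), the ephrin receptor Epha8 (145 against 16.5 CPM), the VEGF receptor Kdr (139 against 16.5 CPM), Hspa12a (424 against 76.9 CPM) and the neuronal tubulin Tubb3 (213 against 38.4 CPM). Their interval bounds nearest 1 lay between 1.5 and 2.24. No gene that was lower in the KO could be named, because in each of the 11 the 5 deepest barcodes held over 50% of the WT reads. That limit is harder to meet with 13 WT members than with 63 KO members, since 5 barcodes are a larger part of them. The lack of named lower genes is therefore no result about direction. Mgarp was among the 11, at 56.8%. The same limit is hard to meet for genes higher in the 15 treated members.

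Mgarp, which encodes a mitochondrial protein of neurons, was the gene named above the KO in the treated library, at 5040 CPM against 2328 CPM (2.16-fold, 1.93 to 2.42). It was at 5073 CPM in WT members, so the KO was the low library. GABAergic barcodes gave 3663, 2717 and 3836 CPM, and bipolar barcodes 5406, 3358 and 5677 CPM, with the KO lowest in both. Beside Mt1 and Mt2, Mxra7 (402 against 121 CPM) and Stac2 (433 against 154 CPM), a gene of a channel-binding adaptor, were lower in the treated library than in the KO. Stac2 was at 121 CPM in the WT, and 34 of 63 KO members had 3 or more reads of it against 2 of 13 and 3 of 15. The pseudogene Mif-ps was lower too (98.2 against 372 CPM), but reads of a pseudogene cannot be told apart from those of Mif, which stood at 1345, 2037 and 1780 CPM.

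Hypoxia genes were slightly above the median of all genes in the KO. Of 25 with enough reads, 19 were above 0 for the KO against the WT, at a median log2 ratio of 0.42 beside -0.11 for all genes. Without the 8 members with bipolar or glial genes it was 17 of 24 and 0.32. The 2 that passed the size rule were Higd1a, a mitochondrial hypoxia-induced protein gene (98.8, 347 and 327 CPM), and the glycolytic Pfkp (236, 645 and 530 CPM). Neither passed it between the treated library and the KO. In the KO against the WT, 1 gene passed without the 8 members with bipolar or glial genes, and none without the barcodes of highest doublet score, where the median was 0.26 with 16 of 23 above 0. For the treated library against the KO the median was -0.09, with 11 of 26 above 0, and against the WT it was 0.38, with 12 of 16 above 0. Vegfa was at 49.4, 89.8 and 78.5 CPM with overlapping intervals. Against GABAergic barcodes, 1 hypoxia gene of 26 was higher, Eno1, and 1 lower, Aldoc (log2 -1.33). Eno1 (log2 0.94) missed the threshold without the treated library (edgeR adjusted p 0.13), without the library term and against the matched barcodes. The 18 oxidative phosphorylation genes had a median log2 ratio of -0.03 for the KO against the WT, and none passed either the size rule or the class test.

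Immediate early genes, which respond within minutes to stimulation or handling, were high in the treated sum. Fos was at 154, 189 and 867 CPM and Jun at 49.4, 167 and 425 CPM, but 5 barcodes held 96.6% and 96.2% of the treated reads. Without the 8 members with bipolar or glial genes Fos was at 154, 134 and 277 CPM and Jun at 49.4, 103 and 80.4 CPM. The list median for the treated library against the KO was 1.46 with those members, 9 of 11 genes above 0, and 0.63 without them, 6 of 9 genes above 0. The Müller gene Apoe was at 269, 261 and 2503 CPM with them and 269, 64.0 and 75.9 CPM without. Against GABAergic barcodes 3 of 13 immediate early genes were lower and none higher, namely Dusp1, Egr4 and Nr4a2. Dusp1 was at -2.21 on the log2 scale, or -3.47 without the KO library, and Egr4 at -3.21, or -5.29 without it. Both missed the threshold against equally many GABAergic barcodes of like depth.

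The remaining lists held few calls. Of 9 genes of the integrated stress response and injury, Gap43 was lower in members than in GABAergic barcodes (log2 -2.39, or -4.00 without the KO library), and of 11 heat shock genes, Hsp90ab1 (log2 -0.75). Gap43 missed the threshold after thinning to 5000 reads and Hsp90ab1 against the matched barcodes. None of 3 interferon, 9 cell death and 6 Norrin and Wnt genes passed. The Norrin receptor genes Fzd4 and Lrp5, the proteins that F4L5.13 joins, had no read and 3 reads in all members, and the ligand gene Ndp was at 0, 3.45 and 0 CPM. Of 5 angiogenic ligand genes, Vegfc (76.9, 18.1 and 32.7 CPM against 4.47, 2.10 and 3.67 CPM) and Fgf2 (27.5, 33.7 and 68.7 CPM against 4.47, 9.23 and 2.62 CPM) were higher and Pdgfa lower (log2 -2.46). Vegfc missed the threshold without the WT (edgeR adjusted p 0.067). Fgf2 missed it without the treated library (adjusted p 0.32), at a log2 difference of 2.13 in place of 2.92, and stood at 3.70 without the KO.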

How the data were processed

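Single-cell RNA of P26 retinas was measured in 3 libraries, 1 per group, with the 10x 3' kit per the labels' protocols. The deposited values are estimated counts of reads per gene and barcode made by the authors; per the submitters' processing notes the tools were Partek 9.0 with the build mm10, and aligner, strand setting and filters were not found. From 2.33% to 2.39% of nonzero values were fractional, and the counts behave as reads that were not collapsed to molecules. Values were therefore rounded, and for intervals and minimums divided by the estimated reads per molecule (WT 2.90, KO 2.87, treated 3.19).

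Barcodes were classified by the read thresholds of the report in Python 3.11.15 with numpy 2.4.6, scipy 1.17.1 and pandas 2.3.3. Intervals were exact 95% Poisson, Clopper-Pearson or conditional binomial intervals, and the limit for a gene without reads was 3 molecule equivalents. Classes were compared on sums per class and library with edgeR 4.0.16 in R 4.3.3 (quasi-likelihood test, TMM scaling, low-count filter, library term, adjusted p limit 0.05), checked on simulated data, and with DESeq2 1.42.0 as an alternative. Members were clustered with scanpy 1.11.5 and leidenalg 0.10.2 at resolution 0.5. Doublets were ranked by Scrublet score and kept in the main values, since 1, 11 and 3 members were among the highest-ranked barcodes.

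Named class genes were the 15 largest positive and 10 largest negative differences among calls with the same sign in all libraries. Named library genes were the 12 highest and 12 lowest ratios (6 and 6 for treated against WT) that met the size rule, had at most 50% of reads in the 5 deepest members and at least 50% of the level of the library's other barcodes. Mitochondrial, ribosomal, haemoglobin, photoreceptor, crystallin and sex-linked genes, unnamed models and genes of the rule were left out. Comparison of libraries had been planned for at least 20 members per library. The WT and treated libraries held fewer, so a minimum of 10 was set after seeing the data. The members and the gene lists were chosen with earlier results of these data known. Gene positions come from the GENCODE annotation of GRCm38. Some genes of the lists are counted in the totals but not reported here by name.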

Additional observations from a re-analysis of the deposited data

How the results depend on the processing

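The members' share of kept barcodes moved to 0.313% in the KO with 5 or more Slc6a9 reads and to 0.797% with 1000 or more genes. Thinning to 5000 reads per barcode gave 0.0992% in the WT and 0.294% in the KO. Adding Ccdc24 reads gave 1.58% in the WT, 4.39% in the KO and 1.18% in the treated library, and shares of amacrine barcodes of 67.1%, 40.5% and 61.8%. That share was 3.90% in the KO with 5 or more Slc6a9 reads, and 3.06% in the KO and 8% in the treated library after thinning.

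For the KO against the WT, the size rule gave 17 higher genes without the highest doublet scores, 62 higher and 6 lower with median-ratio factors, and 263 and 91 when reads were not divided. For the treated library against the KO it gave 7 higher genes with 5 or more Slc6a9 reads, 4 without members with 3 glial or bipolar reads, 4 without the 8 members with many such genes, 24 lower with median-ratio factors, and 142 higher and 265 lower with undivided reads. For the treated library against the WT it gave 3 higher genes without those members, and 140 higher and 52 lower with undivided reads.

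Between the classes, leaving out a library gave 145 to 256 higher and 335 to 443 lower genes, no low-count filter 696 lower, thinning 86 and 124, and matched GABAergic barcodes 90 and 134. In the cases above the cause was not tested, beyond the fewer reads left by thinning and matching. The other 91 values of these counts and shares stayed near the main ones. For shares this meant inside the exact interval of the main setting, and for counts within a set fold, so sizes could still differ. A reversal was not defined for these values. Of the alternatives for single genes, 846 kept the call, 81 lost it and 0 reversed.

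Comparisons of libraries were not run where under 10 members remained, namely all pairs after thinning, and both pairs with the WT with 5 or more Slc6a9 reads or without members with 3 glial or bipolar reads. No paired analysis was possible because each group holds 1 library, so the groups share only replicate number 1. With 13 and 15 members in the WT and treated libraries, a gene without a read there could still be at up to 47.7 and 31.4 CPM.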
